A study of Mus musculus with 2 samples.

Results

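The mouse Hox clusters carry 6 miRNA genes that were counted here: Mir196b in the Hoxa cluster, Mir196a-1 and Mir10a in Hoxb, Mir196a-2 and Mir615 in Hoxc, and Mir10b in Hoxd. They were chosen by name from 1973 miRNA genes, through the gene identifiers of the count tables, and all 6 had reads in both libraries. The libraries are microRNA sequencing of the intestine of 2 newborn mice, at postnatal day 0, of strain B6NCrl, called pup 1 and pup 2. Both pups came from the same pregnant female. The labels state no treatment or allele, name no segment of the intestine and leave the sex as not collected. There is 1 group with 1 library per animal, so the values describe levels in newborn gut and how far the littermates differed.

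Hox genes are transcription factors that give cells their position along the head to tail axis, in the gut as elsewhere. Within a cluster they lie in the order in which they are used: genes of low paralog number act from anterior levels on, and genes of high number act posteriorly, in the hindgut for example. The miRNAs between them arise from the same stretches of chromatin, and several of their known targets are Hox transcripts. Members of the miR-196 family repress Hoxb8 and other Hox genes, and members of the miR-10 family lie by the paralog 4 genes.

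Sequence sorts the 6 genes into 3 families, which is why the strands are shown; all 6 had mature strands in the RefSeq table for GRCm38.p6. The mature strands of the 5′ arm of miR-10 and miR-196 and both arms of miR-615 are printed 5′ to 3′ with the seed, bases 2 to 8, in capitals.
miR-10a-5p: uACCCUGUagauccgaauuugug
miR-10b-5p: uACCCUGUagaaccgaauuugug
miR-196a-5p: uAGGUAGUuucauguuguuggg
miR-196b-5p: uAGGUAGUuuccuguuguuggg
miR-615-5p: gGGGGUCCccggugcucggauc
miR-615-3p: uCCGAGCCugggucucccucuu
Counted from the 5′ end, miR-10a-5p and miR-10b-5p differ by 1 base, U12A, and miR-196a-5p and miR-196b-5p also differ by 1 base, A12C. Both changes lie outside the seed. Mir10b is the 1 other gene in the table with the seed of miR-10a-5p. The seed of miR-196b-5p is shared by 2 other genes, Mir196a-1 and Mir196a-2, and the seeds of both miR-615 strands by 0 others.

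Mir196a-1 and Mir196a-2 make an identical 5′ strand, and this bears on their counts. Their hairpins share a run of 22 bases, given in capitals, which is the whole of miR-196a-5p.
Mir196a-1 hairpin: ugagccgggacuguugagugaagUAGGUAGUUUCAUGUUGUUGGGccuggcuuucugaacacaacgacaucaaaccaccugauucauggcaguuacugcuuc
Mir196a-2 hairpin: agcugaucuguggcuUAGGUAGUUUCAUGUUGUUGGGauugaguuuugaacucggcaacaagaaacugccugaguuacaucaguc
A read of exactly these bases has at least 2 places in the genome, and such reads were counted for no gene. The tables set aside 1932378 reads of pup 1 and 2492615 of pup 2 as mapping to several places. The counts of Mir196a-1 and Mir196a-2 are thus lower limits, made of reads that reach past the shared bases or come from elsewhere in the hairpin, and the split between the pair is uncertain. For the other members no shared strand was found among annotated hairpins: the longest exact run was 12 bases for Mir196b, 15 for Mir10a and for Mir10b, and 14 for Mir615. The rest of the genome was not searched, and reads that align with mismatches were not examined. The counts add up the arms of a hairpin, so the arms cannot be told apart.

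To show a site of the family, miR-196a-5p was laid without gaps along the annotated transcripts of 21877 protein-coding genes. The site with the most Watson-Crick pairs was in Hoxb8, which lies in the cluster of Mir196a-1, with Hoxb9 between them. In the 3′ UTR of Hoxb8 at chr11:96284888-96284909 (GRCm38, plus strand), 21 of 22 bases form Watson-Crick pairs and 1 a G-U pair, at base 5 of the miRNA. The site reads as follows, with the base of the G-U pair in lower case.
Hoxb8 site: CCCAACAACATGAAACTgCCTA
The next gene in that order, Sh2d1b1, reached 17 Watson-Crick pairs. Hoxb8 also came first for miR-196b-5p, with 20 Watson-Crick pairs, against 18 for the next gene, Depdc5. No Hox gene came first for miR-10a-5p or miR-10b-5p, where the best sites had 18 Watson-Crick pairs of 23 bases. Messenger RNA was not measured in these libraries, so nothing here bears on whether Hoxb8 was present or cleaved.

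The members lie at 2 kinds of place in their clusters, and their coordinates follow GENCODE M21 on GRCm38. All 3 Mir196 genes lie at the Hox9 gene of their cluster or on its Hox13 side. Mir196b occupies 52230081 to 52230165 of chromosome 6, minus strand, within the gene span of Hoxa9 and 1031 bases from Hoxa10. It falls in an exon of 2 of 3 annotated Hoxa9 transcripts that span it and in an intron of the third. None of these 3 transcripts is annotated as protein-coding. Mir196a-1 lies on chromosome 11 from 96265164 to 96265265 on the plus strand, outside annotated genes of its strand and 6191 bases from Hoxb9. Mir196a-2 lies on chromosome 15 from 102973350 to 102973434 on the plus strand, with Hoxc10 ending 1456 bases before it and Hoxc9 starting 3004 bases after it. It also falls in an intron of 1 long annotated transcript of Hoxc5, which is not annotated as protein-coding.

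The other 3 members lie towards the Hox1 side. Mir615 lies on chromosome 15 from 103014910 to 103015001 on the plus strand, in an intron of both Hoxc5 transcripts that span it, 1 of them protein-coding. Mir10a lies on chromosome 11 from 96317165 to 96317274 on the plus strand, outside annotated genes of its strand, with Hoxb5 ending 11043 bases before it and Hoxb4 starting 992 bases after it. Mir10b lies on chromosome 2 from 74726070 to 74726137 on the plus strand and falls in introns of Hoxd4 and of Hoxd3. In the count tables Mir10b and Mir196a-2 carry an earlier version of their identifiers, whose coordinates may differ. A seventh annotated miRNA gene, Gm44463 of the Hoxd cluster, was not analysed here.

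**Figure D1:**
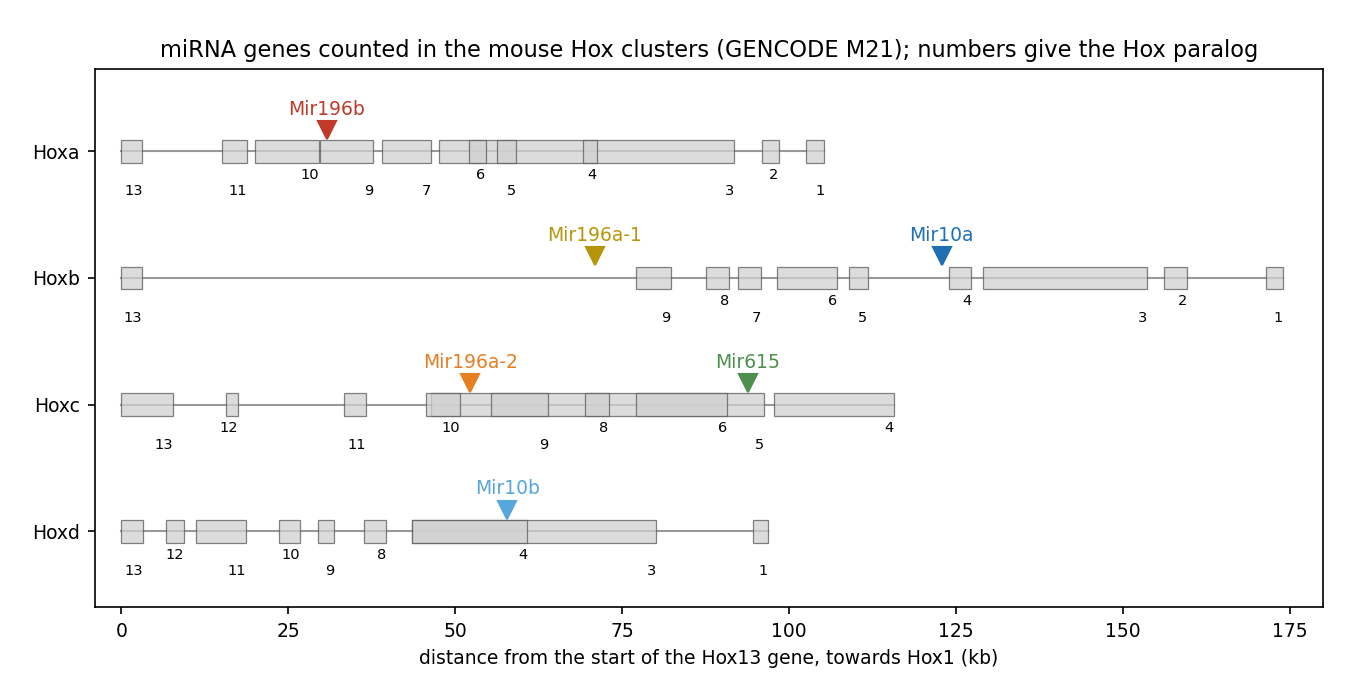
Map of the 4 Hox clusters, with distance in kb from the start of the Hox13 gene on the x axis. Grey boxes are Hox gene spans with the paralog number under their right end, and triangles mark the 6 miRNA genes: all 3 Mir196 genes lie between Hox13 and the end of Hox9, and Mir615, Mir10a and Mir10b lie nearer to Hox1.

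The libraries held 3567658 counts in pup 1 and 4683939 in pup 2 for the annotated strand of miRNA genes. A level in CPM is a gene's number of counts per 1000000 of these. Where no read was seen, up to 3 counts remain possible, which stand for 0.841 CPM in the first library and 0.640 CPM in the second. Since the reads carry no molecular identifiers, intervals and this floor cover the error of counting alone. Capture of different sequences can differ and was not measured, so levels and folds between different genes compare counts, not molecules. The tissue label was checked by marker lists: the 12 genes of the gut epithelium list, Mir215 and Mir429 highest, were all tested and held 31.6% of counts in pup 1 and 36.4% in pup 2. The smooth muscle list, led by Mir143 and Mir145a, held 18.1% and 15.0%. The libraries are bulk tissue, where fewer cells of a type and less RNA per cell cannot be told apart.

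Together the 6 genes took 3.24% of miRNA counts in pup 1 and 2.56% in pup 2, a mean of 2.90% ± 0.479 (SD, n = 2; every ± below is such an SD). Nearly all of this came from the Mir10 genes of Hoxb and Hoxd. The pair summed to 30003 CPM in pup 1 and 25302 CPM in pup 2, against 2137 and 74.3 CPM for the 3 Mir196 genes. Of the 3 families, Mir196 was the one whose level differed most between the pups.

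Mir10a, which faces Hoxb4 from the Hoxb5 side, led the members. Its 70857 counts in pup 1 and 83855 in pup 2 made 19861 and 17903 CPM, with a mean of 18882 ± 1385 CPM. Mir10a was the 13th most abundant of all genes in pup 1 and the 15th in pup 2. Its nearest detected neighbours in level were Mir22, with 19841 ± 667 CPM, and Mir335, with 15108 ± 211 CPM. The spread of Mir10a reached past Mir22 and did not reach Mir335.

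Mir10b, its Hoxd paralog, stood second. Its 36182 counts in pup 1 and 34660 in pup 2 made 10142 and 7400 CPM, with a mean of 8771 ± 1939 CPM. Both pups had less Mir10b than Mir10a, and the distance between the means exceeded both SDs together. Within libraries the log2 ratio of Mir10a over Mir10b was 0.97 in pup 1 and 1.27 in pup 2. Since the mature strands differ at 1 base, a read of one with that base changed has the sequence of the other; how many such reads were counted was not tested. The level of Mir10b was close to those of Mir23a (8956 ± 1062 CPM) and Mirlet7d (8579 ± 185 CPM), both within its SD.

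Mir615, inside Hoxc5, was low and nearly equal in the littermates. It had 857 counts in pup 1 and 1066 in pup 2, or 240 and 228 CPM, with a mean of 234 ± 8.93 CPM. It ranked 133rd and 137th of all genes. Mir499, a striated muscle miRNA with 234 ± 3.48 CPM, and Mir24-2 with 232 ± 3.30 CPM were its neighbours in level and did not differ from it beyond the spread. Mir10a exceeded Mir615 by 82.7-fold in pup 1 and 78.7-fold in pup 2, so the ratio of these members hardly moved between the animals.

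Mir196b, the Hoxa member by Hoxa9 and Hoxa10, did not have 1 level in these pups. It had 7337 counts in pup 1, which was 2057 CPM (exact binomial 95% interval 2010 to 2104). In pup 2 it had 310 counts, or 66.2 CPM (59.0 to 74.0). In pup 1 it was the 55th most abundant gene and in pup 2 the 192nd. The mean of 1061 ± 1407 CPM therefore describes neither pup, and the neighbours of that mean, Mir92-1 (1074 ± 26.6 CPM) and Mir195a (1057 ± 18.5 CPM), are neighbours of an average only. In pup 1 Mir196b was above Mir615 and in pup 2 below it, so this pair of the order did not hold beyond the spread. Mir10a exceeded Mir196b by 9.66-fold in pup 1 and by 270.5-fold in pup 2.

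Mir196a-2, between Hoxc10 and Hoxc9, showed the same order of the pups at a lower level. It had 272 counts in pup 1, or 76.2 CPM (67.4 to 85.9), and 35 in pup 2, or 7.47 CPM (5.20 to 10.4). The intervals of the pups do not overlap, and its rank went from 189th in pup 1 to 272nd in pup 2. Around its mean of 41.9 ± 48.6 CPM lay Mir449a with 43.2 ± 7.92 CPM and Mir331 with 40.1 ± 4.41 CPM, which were far steadier between the pups.

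Mir196a-1, between Hoxb13 and Hoxb9, was at the edge of detection. It had 16 counts in pup 1, or 4.48 CPM (2.56 to 7.28), and 3 in pup 2, or 0.640 CPM (0.132 to 1.87). It was above the level that a count of 0 allows in pup 1 and at that level in pup 2, and it missed the minimum of 10 counts in each library that the test below asked for. In both pups it was below Mir196a-2, but the distance of the means did not exceed their SDs. Reads of the strand shared by Mir196a-1 and Mir196a-2 were lost from both.

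**Figure D2:**
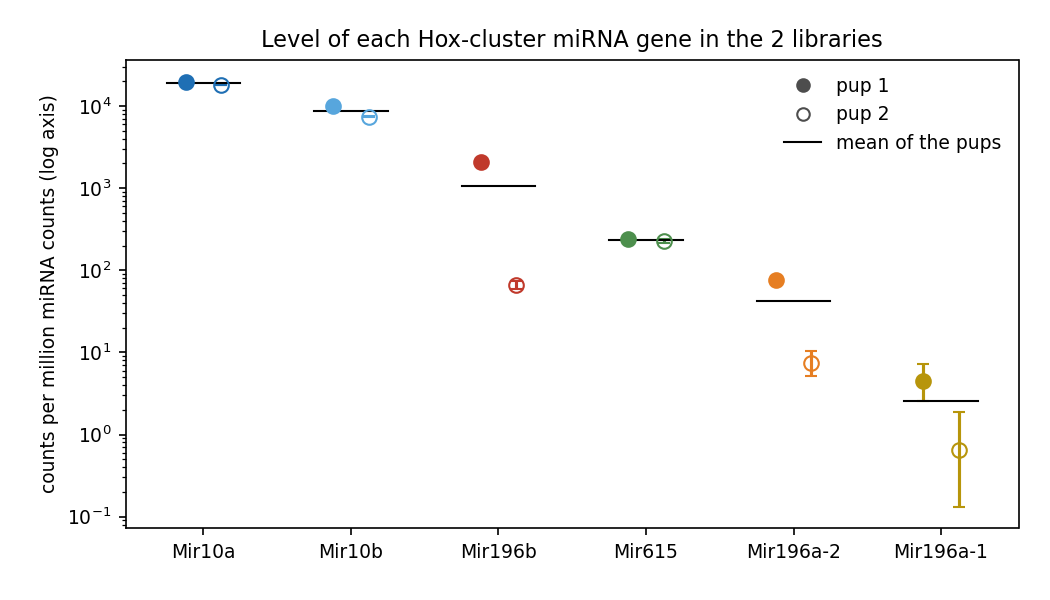
Level of each member in CPM on a log axis, with pup 1 as filled circles, pup 2 as open circles, exact binomial 95% intervals as bars and the mean as a line. Mir10a, Mir10b and Mir615 hold nearly the same place in both pups, while Mir196b goes from 2057 to 66.2 CPM and Mir196a-2 from 76.2 to 7.47 CPM.

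The littermates were then compared as libraries, gene by gene, with TMM scaling and a 2-sided exact binomial test adjusted by Benjamini-Hochberg over the 314 genes with at least 10 counts in each library. This compares 2 libraries, with no replicate of either pup and no condition behind them. Of 314 genes 129 passed the test, or 41.1%, and 6 were more than 2-fold apart, or 1.91%. Of the 5 members tested 4 passed and 2 were more than 2-fold apart, against those shares of all genes. The 4 that passed were all higher in pup 1, where 19.7% of all genes were called higher, and the 2 beyond 2-fold were too, against 1.27% of all genes. The median log2 ratio, pup 2 over pup 1, was -0.41 over the 5 members tested and 0.00 over all 314 genes. At this depth the test calls small differences, so the size and its interval say more than the call.

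Mir196b had the largest difference of all 314 genes, with a log2 ratio of -4.91. It was 30.2-fold higher in pup 1, with an exact binomial 95% interval from 26.9 to 33.9, and its adjusted p was too small to be written. Mir196a-2 came second, with a log2 ratio of -3.31 and a level 9.90-fold higher in pup 1 (interval 6.95 to 14.5; adjusted p = 4.24e-59, exact binomial test). For Mir196a-1, outside the tested set, the ratio was 6.80-fold higher in pup 1, with an interval from 1.95 to 36.4. All 3 Mir196 genes, on 3 chromosomes, therefore had higher levels in pup 1. The 2 that were tested were called, where 19.7% of all genes were called higher in pup 1. Mir196a-1 rests on 16 and 3 counts, and its split from Mir196a-2 is uncertain.

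By the counted reads, the size was not the same in all of them. Mir196b differed between the pups by 3.04 times as much as Mir196a-2 (interval 2.04 to 4.43; adjusted p = 3.63e-07, Fisher's exact test over the 3 pairs of Mir196 genes). Against Mir196a-1 the factor was 4.44, with an interval from 0.824 to 15.6 and an adjusted p of 0.0603 by Fisher's exact test, so no difference was detectable at this depth. Mir196a-2 and Mir196a-1 differed by a factor of 1.46 (interval 0.259 to 5.46; adjusted p = 0.474, Fisher's exact test). These tests, too, set counts of the 2 libraries against counting error alone. Reads of exactly miR-196a-5p were counted for neither Mir196a gene, so the folds come from unlike sets of reads. In addition, miR-196a-5p and miR-196b-5p differ by 1 base, and reads counted for the wrong gene were not tested.

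Among the 314 tested genes, the next were far from these values. The 3 other tested genes most like the Mir196 genes over the 2 libraries, by the lowest log2 ratio, were Mir122, Mir1247 and Mir6540. Liver Mir122 had 103 counts in pup 1 and 58 in pup 2, a 2.26-fold difference. Mir1247 had 69 and 41 counts, 2.14-fold, and Mir6540 had 26 and 17, 1.95-fold, which did not pass (adjusted p = 0.0729, exact binomial test). The fold of Mir196b was 13.3 times that of Mir122, and the fold of Mir196a-2 was 4.38 times that of Mir122. This order leaves out genes under the count minimum in either library, so the place of Mir122 as the next gene depends on that minimum. With the minimum asked only of the higher library, 23 of 344 genes were more than 2-fold apart, 3 of them members.

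Genes of a like level serve as a scale, here those whose mean lay within a factor of 2 of the member's level, taken in each pup in turn since the pups differed so much. At the level of Mir196b in pup 1 these were 45 other genes, whose log2 ratios went from -0.40 in Mir28a to 0.65 in Mir182, and at its level in pup 2 they were 53 genes, from -0.55 in Mir410 to 0.91 in Mir451a. At the level of Mir196a-2 in pup 1 they were 56 genes, also from Mir410 to Mir451a. At its low level in pup 2 the 47 genes spread more widely, from -1.10 in Mir1247 to 1.16 in Mir1198. 0 genes of these 4 sets had a ratio as low as the member's own. The sets hold only genes with at least 10 counts in each library, so genes that fell below this in pup 2 are left out. At low levels this minimum also limits how low a ratio can be. Across all 314 genes the 5th and 95th percentiles of the log2 ratio were -0.43 and 0.44, so the Mir196 genes lay far outside the range that held most genes, while the other members lay within it.

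**Figure D3:**
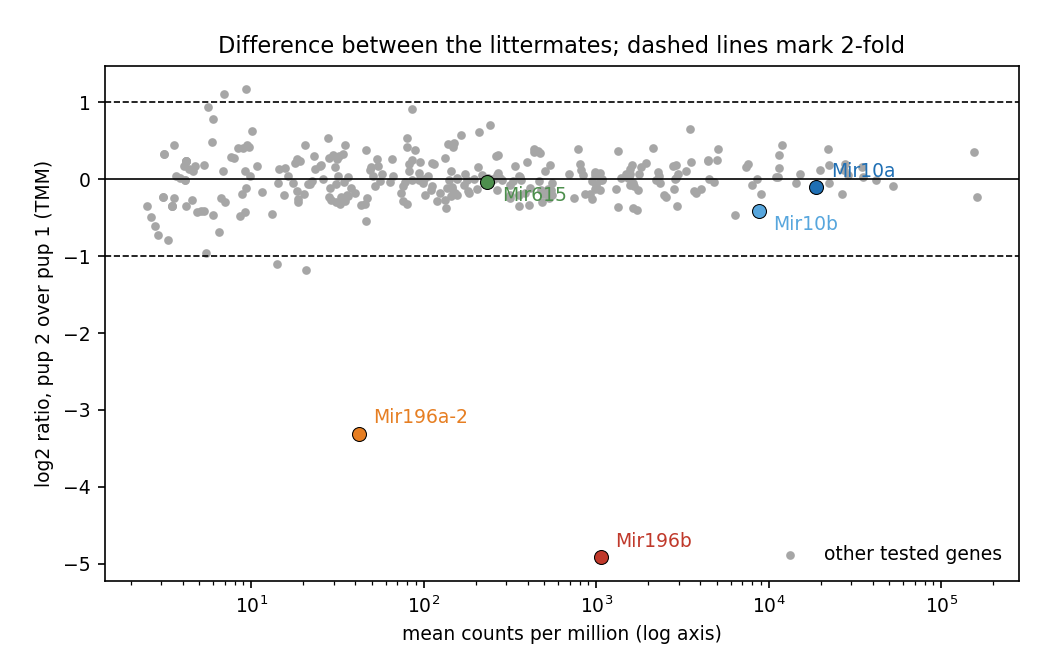
Log2 ratio of pup 2 over pup 1 with TMM scaling against mean CPM on a log axis, for 314 genes. Grey points are other genes, coloured points the 5 tested members, and dashed lines mark 2-fold: Mir196b at -4.91 and Mir196a-2 at -3.31 stand below all other points.

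Mir10b was moderately lower in pup 2, with a log2 ratio of -0.41 and a level 1.33-fold higher in pup 1 (interval 1.31 to 1.35). It passed the test, but 19 of 314 genes had a lower ratio, and among the other genes of a like level, 14 by its level in pup 1 and 20 by that in pup 2, Mir411 was lower still, with -0.47. The genes of at least 100 CPM nearest to it in ratio were Mir28a with -0.40 and Mir5099 with -0.38. Mir10a had a log2 ratio of -0.11, or 1.08-fold higher in pup 1 (interval 1.07 to 1.09; adjusted p = 1.13e-46, exact binomial test). By the size of the difference it ranked 214th of 314 genes, and among genes of at least 100 CPM its nearest in ratio were Mir574 with -0.11 and Mir101a with -0.12. Mir615 had -0.04 (interval -0.17 to 0.10; adjusted p = 0.779, exact binomial test) and did not pass; Mir363 and Mir381, both with -0.03, were nearest to it among genes of at least 100 CPM. That interval leaves room for a difference of up to 1.12-fold towards pup 1.

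Read by cluster, neighbouring members of the same cluster did not move together. In Hoxc, Mir196a-2 was 9.90-fold higher in pup 1, and Mir615, on the Hox1 side of it on the same chromosome, had a ratio of 1.02-fold (interval 0.935 to 1.12). In Hoxb, Mir196a-1 was 6.80-fold higher in pup 1 and Mir10a 1.08-fold. The Mir196 family and a place at Hox9 or on its Hox13 side coincide in these genes and cannot be told apart.

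The miR-99, miR-100 and miR-125 genes lie outside the Hox clusters and served as sequence relatives of miR-10. Their closest strand to miR-10a-5p was miR-100-5p, with a shared run of 11 bases, printed with its seed in capitals.
miR-100-5p: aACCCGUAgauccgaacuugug
miR-99a-5p: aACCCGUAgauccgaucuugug
Their seed differs from that of miR-10. The list of 6 genes held 3.21% of counts in pup 1 and 2.97% in pup 2, about as much as the Hox members. Mir99a, with 22374 ± 1063 CPM, was above Mir10a in both pups, by a log2 ratio of Mir10a over Mir99a of -0.22 in pup 1 and -0.27 in pup 2. Mir100 had 2527 ± 339 CPM, and Mir10a exceeded it by 7.18-fold and 7.83-fold. Between the pups 4 of the 6 relatives were called higher in pup 1 (2, Mir99b and Mir100, with upper-quartile scaling), against 19.7% of all genes, and 1, Mir125a, higher in pup 2, against 21.3%. Their log2 ratios went from -0.23 in Mir100 to 0.13 in Mir125a, with 0 of 6 more than 2-fold apart. Mir125b-1 (-0.22) and Mir125b-2 (0.00) make an identical 5′ strand and lose shared reads as the Mir196a pair does.

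**Figure D4:**
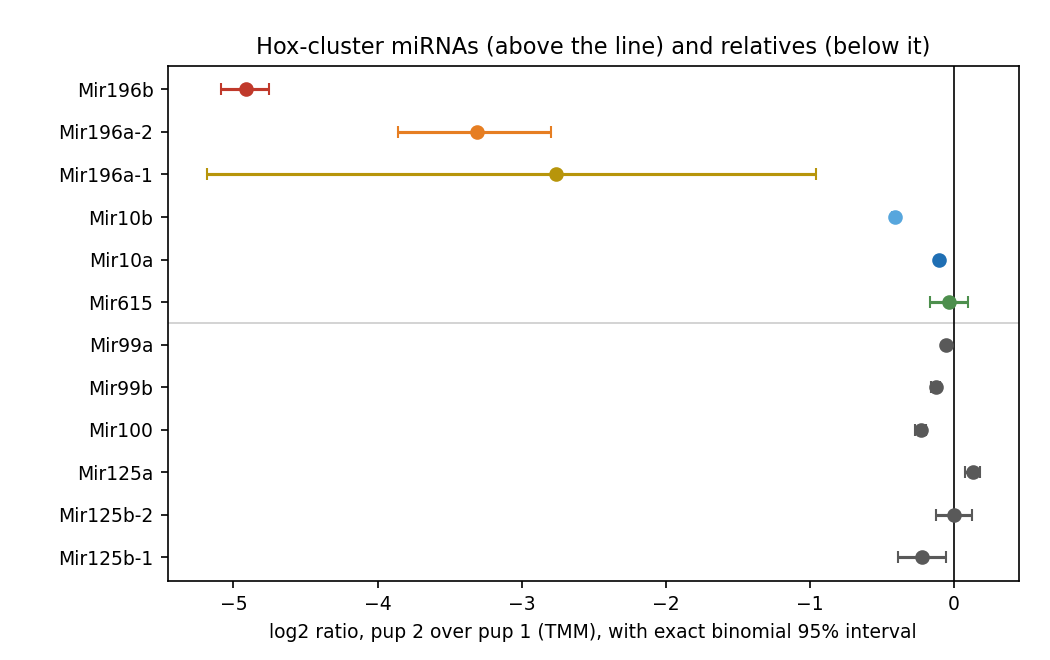
Log2 ratio of pup 2 over pup 1 with TMM scaling, with exact binomial 95% intervals, for the 6 members above the line and 6 relatives of miR-10 below it. The 3 Mir196 genes lie between -4.91 and -2.76, and all other genes shown lie between -0.41 and 0.13.

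Other tissue markers were set beside the Mir196 difference, as summed levels over the listed genes that matched a counted gene. The neural list matched in 10 of 11 genes, without Mir9-1, and the striated muscle list in 7 of 8, without Mir1a-2. Epithelial genes went the other way: all 12 were called higher in pup 2 (9 with total-count scaling, where 2 had log2 ratios below 0), against 21.3% of all genes. Their sum was 316321 CPM in pup 1 and 363913 in pup 2. Smooth muscle genes summed to 181056 and 150130 CPM, with 1 of 2 tested genes, Mir143, called higher in pup 1, as were 19.7% of all genes; Mir145a (log2 ratio 0.00) was called higher in pup 1 with total counts and in pup 2 with upper-quartile scaling. The mesenchyme list, led by Mir214 and Mir199b, summed to 2184 and 1953 CPM, with 1 of 5 tested called higher in pup 1. Endothelial Mir126a had 54634 and 49791 CPM. The neural list summed to 1297 and 1302 CPM, led by Mir137 and Mir138-1, with 4 genes at 0, Mir9-2 and the 3 Mir124a genes. The striated muscle list summed to 347 and 355 CPM, led by Mir499 and Mir208b, with Mir1a-1, Mir133a-1 and Mir133a-2 at 0. Genes at 0 in both lists include copies of near-identical sequence, whose shared reads were counted for no gene.

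Liver, pancreas and erythroid markers were low in both pups. Mir122 had 28.9 and 12.4 CPM, the pancreas list of Mir217, Mir216b and Mir216a 0.561 and 1.07 CPM, and the erythroid list, led by Mir451a and Mir144, 101 and 148 CPM. The leukocyte list, led by Mir342 and Mir223, summed to 1256 and 1503 CPM with Mir142b at 0. It matched in 6 of 7 genes, without Mir142. Of all these lists, Mir122 moved with the Mir196 genes by more than 2-fold. Smooth muscle, mesenchyme and endothelium moved the same way by less, with log2 ratios of the sums of -0.23, -0.12 and -0.09. The summed epithelial, erythroid and leukocyte levels moved against the Mir196 genes. Within the erythroid list, Mir451a (log2 ratio 0.91) was called higher in pup 2, while Mir144 (-0.12) was not called. Of 5 leukocyte genes tested, 2 were called higher in pup 2, Mir223 and Mir342, against 21.3% of all genes. No list differed by more than the 2.26-fold of Mir122, and their part in the Mir196 difference was not tested. On the opposite strand the members had 1 read in all, at Mir10a in pup 1, so reads of facing transcripts did not enter these values.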

How the data were processed

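The deposited values are counts of reads for each miRNA gene, unnormalized; the authors used mm10 and GENCODE M4, per the file headers in the accompanying text. Aligner and counter are not given in the sources used here. Counts on the annotated strand were used. Of each library, 30.3% and 29.8% of reads mapped to several places, 9.35% and 10.1% were unmapped and 2.41% and 2.23% lay outside features; these stayed out of all sums. Of 1973 identifiers, 1894 matched GENCODE M21 on GRCm38, the same assembly as mm10. Sequences are RefSeq's for GRCm38.p6, except the Hoxb8 site, from the GENCODE M21 transcripts. CPM used all counts in miRNA genes. Ratios used TMM (edgeR 4.0.16), exact binomial tests (R 4.3.3), Benjamini-Hochberg adjustment and a threshold of 0.05. These steps were run on simulated counts with counting error alone, which cannot show how they behave with differences between animals or preparations. Alternatives were DESeq2 1.42.0 size factors, upper quartile, total counts, other count minimums, a fold of 1.5, a pseudocount of 0.5, counts on either strand, all reads as denominator and each pup alone. Members and lists were chosen with earlier results of these data known. Named genes were the members, neighbours in level and ratio, relatives, and the 2 highest genes of each list; Mir125b-1, genes at 0, the windows of like level and their extremes were chosen with their values in view.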

Additional observations from a re-analysis of the deposited data

How the results depend on the processing

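Of 80 alternative values that use both pups, 69 counted as kept. Ratios and levels had to keep their direction, their call or their place within the spread. A number of genes or members counted as kept within a factor of 1.5, so 3 members beyond 2-fold against 2 count as kept. For a level the spread is the SD over the pups, so members that differed most between the pups count as kept most easily. Mir196b counts as kept at 594 CPM against 1061, with an SD of 1407. Mir10a does not at 10564 CPM against 18882, with an SD of 1385. With all reads of the library as denominator, the means were 10564 CPM for Mir10a, 4907 for Mir10b, 131 for Mir615, 594 for Mir196b, 23.4 for Mir196a-2 and 1.43 for Mir196a-1, and the share of the 6 genes was 1.62%; without Mir143 in the denominator it was 3.46%, against 2.90%. The log2 ratio of Mir615 was 0.0065 with upper-quartile scaling, against -0.04, and did not pass in either case. With at least 100 counts in each library, 1 of 4 members tested (Mir196b) and 1 of all 227 genes were more than 2-fold apart. Mir196a-2, Mir122, Mir1198, Mir1247 and Mir8112, the other 5 of the main setting, were under that minimum in 1 or both libraries. The set of genes compared also changed with the minimum. When every gene with a read entered, 219 of 672 genes and 3 of 6 members were more than 2-fold apart. With 10 counts asked only of the higher library (chosen after seeing the data), these were 23 of 344 genes and 3 of 6 members. At a fold of 1.5 they were 18 of 314 genes and 2 of 5 members, against 6 of 314 genes and 2 of 5 members in the main setting. The split of called genes was 67 higher and 62 lower in pup 2, 53 and 74 with total counts, and 84 and 46 with upper-quartile scaling; the 4 members called stayed higher in pup 1 under each scaling. With each pup alone, levels went from 17903 to 19861 CPM for Mir10a, from 7400 to 10142 for Mir10b, from 228 to 240 for Mir615, from 66.2 to 2057 for Mir196b, from 7.47 to 76.2 for Mir196a-2 and from 0.640 to 4.48 for Mir196a-1, the share from 2.56% to 3.24% and the log2 ratio of Mir10a over Mir10b from 0.97 to 1.27. With 2 pups each lies within 1 SD of their mean by arithmetic, so these ranges say nothing about stability. Ratios between the pups need both libraries, so leaving out a pup gives none. No paired analysis was possible because the series has 1 group. Depth limits Mir196a-1, with 3 counts in pup 2.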
